A study of Mus musculus with 8 samples.

Results

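Chemokines and their receptors were examined as one gene family in the whisker follicles of ApcMin/+ mice given the oral compound E7386 or its vehicle. Members were every gene whose current symbol is Ccl, Cxcl, Ccr or Cxcr with a number, together with Xcl1, Xcr1, Cx3cl1, Cx3cr1 and the atypical receptors Ackr1 to Ackr4. The array held 56 such genes on 68 probes, out of 37018 genes in all, and 62 symbols of the mouse annotation match the same rule. The 56 comprised 34 ligands, 18 signalling receptors and 4 atypical receptors. Of these, 44 were bright enough to be tested, among 25353 genes tested.

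Both groups were female mice carrying the ApcMin allele in 1 copy, a truncating germline mutation of Apc, whose product takes part in the degradation of beta-catenin. E7386 was given orally at 30 mg/kg, with 2 doses on each dosing day, in 4 cycles of 5 days with dosing and 2 days without, from the age of 8 weeks. The vehicle group did not receive the compound. E7386 is known as a modulator of the interaction between beta-catenin and the coactivator CBP. Follicles were taken 6 h after the final dose and 4 samples of each group were measured, each on its own 1-colour array from 50 ng of total RNA. The labels do not say that each sample came from a separate mouse, so each p-value covers the spread between samples, which may be technical. All mice carried the ApcMin allele, so neither group shows the follicle of a wild-type mouse.

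Chemokines are small secreted proteins that bind G protein-coupled receptors on leukocytes and direct their movement along gradients. Some are inducible and recruit neutrophils, monocytes or T cells to inflamed tissue, and others are made constantly and hold resident cells in place. In skin and hair follicles, keratinocytes, fibroblasts and resident macrophages make chemokines, and Langerhans cells, resident T cells and monocyte-derived cells carry the receptors. Atypical receptors bind chemokines without the usual G protein signal and clear or store them.

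All values are log2 of the scanner program's processed signal relative to the 75th percentile of the same array, so that 0 is the signal of that percentile. A difference is E7386 minus vehicle on this scale. The 75th percentile lay between 459.4 and 620.2 intensity units on the E7386 arrays and between 564.6 and 656.2 on the vehicle arrays. The share of transcript spots well above background lay between 61.5 and 61.9% on E7386 arrays and between 62.2 and 64.7% on vehicle arrays. The 8 arrays lay on 1 slide with each group in a row of its own, so slide row and treatment cannot be told apart. The slide column, 1 to 4, equals the replicate number and is crossed with treatment; with it as a block, 0 members and 48 of all genes passed the limma test given below, against 287 genes without it. All 6 outer root sheath keratinocyte markers and all 5 hair shaft and inner sheath markers on the array were well above background on all 8 arrays. So were the 6 skeletal muscle markers, whose mean was 1.74, 2.44, 4.56 and 4.64 in E7386 follicles, against 1.42, 3.83, 4.34 and 4.51 in vehicle follicles. Muscle signal was thus lower on E7386 arrays 1 and 2 and on vehicle array 1 than on the other 5. The mean of 5 markers common to leukocytes (Ptprc, Cd52, Cd53, Laptm5 and Coro1a) was -0.22, -0.31, -1.14 and -1.0 in E7386 follicles, against -0.79, -0.40, -0.11 and -0.62 in vehicle follicles, lowest on E7386 arrays 3 and 4.

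No member passed the test over all genes (limma, Benjamini-Hochberg adjusted p under 0.05), 0 of 44, where 1.13% of all genes tested did, 0.781% higher and 0.351% lower in E7386 follicles. The smallest adjusted p among members was 0.0828, for Ccl7. At an unadjusted p under 0.05, 10 members were lower and 3 higher in E7386 follicles, which is 22.7% and 6.82% of the 44. The shares over all genes tested were 7.13% lower and 7.87% higher. The 4 E7386 arrays lay below the 4 vehicle arrays without overlap for 8 members (18.2%, against 5.25% of all genes) and above them for 1 member (2.27%, against 5.13%). The median difference was -0.12 over the 44 members and 0.017 over all genes; under normexp background correction, chosen after seeing the data, the members' median was 0.025. In the values as reported, 25 members had the lower mean in E7386 follicles and 19 the higher. In RNA from whole follicles, fewer cells that carry a transcript and less of that transcript per cell cannot be told apart.

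Of the 44, 5 were kept without being well above background on every array, all 5 with the lower mean in E7386 follicles. Among them, Ccl4 and Ccl28 passed through the vehicle arrays alone, which selects for a lower E7386 signal, and Ccl24 and Cxcr2 were below the limit on 1 E7386 array. Among the 39 members well above background on all 8 arrays, 20 had the lower and 19 the higher mean, the median difference was -0.015, and 6 lay below the vehicle arrays (15.4%) and 1 above them (2.56%) without overlap. Of the 23295 genes well above background on all 8 arrays, 5.40% lay below and 5.22% above, with a median difference of 0.017. At an unadjusted p under 0.05 in limma, 8 of the 39 members were lower (20.5%) and 3 higher (7.69%). Of the 23295 genes, 7.07% were lower and 7.76% higher at that limit. The ligands had a median difference of -0.074 (15 lower, 11 higher), the signalling receptors of -0.048 (7 lower, 7 higher) and the atypical receptors of -0.26 (3 lower, 1 higher).

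**Figure D1:**
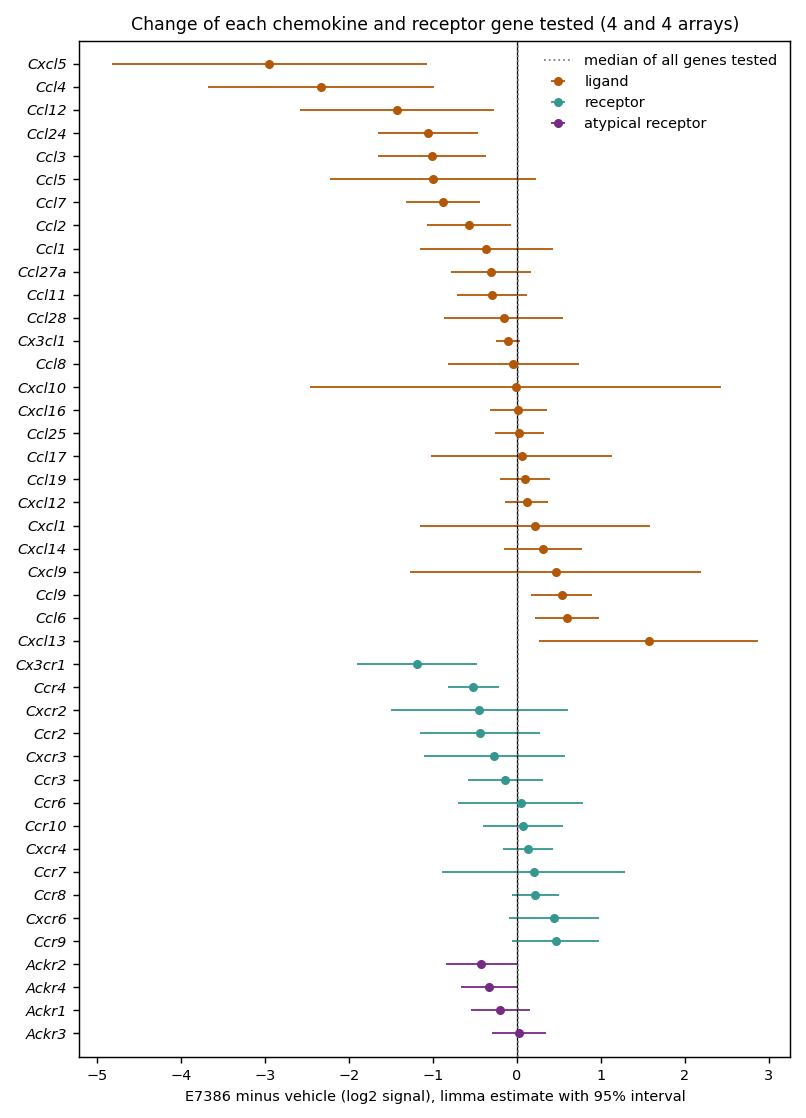
Difference in log2 signal (E7386 minus vehicle) with its 95% interval for 43 of the 44 members tested, ordered within ligands, receptors and atypical receptors. The differences run between -2.94 (Cxcl5) and 1.57 (Cxcl13), and no member passed the adjusted test.

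Of the ligands that act on neutrophils through Cxcr1 and Cxcr2, Cxcl5 gave the most negative difference of the family. Cxcl5, which epithelial cells make when inflamed, had log2 values of -1.32, -2.25, -3.96 and -3.43 in E7386 follicles, against 2.23, -0.46, -1.19 and 0.23 in vehicle follicles. The groups did not overlap, and the spread within each was wide: the mean was -2.74 ± 1.19 in E7386 follicles and 0.20 ± 1.47 in vehicle follicles (SD, n = 4 each). The difference was -2.94 (95% interval -4.82 to -1.07), 7.70-fold lower in E7386 follicles, with an adjusted p of 0.147 in limma. Without vehicle array 1, its highest value, the difference was -2.27 (adjusted p = 0.213). Over all 8 arrays it was the most negative difference of the 25353 genes tested, and by p it ranked 1164. Cxcl1, a ligand of the same receptor, had log2 values of -1.52, -3.89, -4.46 and -3.91 in E7386 follicles, against -3.14, -3.61, -3.73 and -4.17 in vehicle follicles, with a difference of 0.22 and an interval of -1.15 to 1.59. Its groups overlapped. Cxcr2, the neutrophil receptor for both, had log2 values of -3.91, -4.62, -4.69 and -6.24 in E7386 follicles, against -4.11, -4.19, -4.42 and -4.94 in vehicle follicles, and its difference was -0.45 ± 0.46 (SE). It was well above background on 3 E7386 arrays and 4 vehicle arrays. Cxcl2 and Cxcl3 were each well above background on 1 array of either group and Cxcr1 and Cxcl15 on none, so these 4 were not tested.

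Among the inflammatory CC ligands, members differed in direction. Ccl4, made by activated macrophages, T cells and natural killer cells, had log2 values of -4.82, -4.28, -5.50 and -7.20 in E7386 follicles, against -3.64, -2.71, -2.74 and -3.40 in vehicle follicles. All 4 E7386 arrays lay below the 4 vehicle arrays, and Ccl4 was well above background on 2 E7386 and 4 vehicle arrays. It was kept through the vehicle arrays alone, which selects for a lower E7386 signal. Its difference of -2.33 ± 0.59 (SE) is therefore a description, and no fold or p-value is given. It rests partly on signals at the background, since not every E7386 array was well above it. With normexp the difference was -0.63, and no p-value is given there either. Normexp was run with a constant offset added to every signal, which shrinks differences between weak signals whatever their cause. The part of background in the smaller normexp differences of Ccl4, Ccl3, Ccl24 and Ccr4 was therefore not tested. Ccl3, which shares many sources with Ccl4, had log2 values of -4.29, -4.11, -5.07 and -4.27 in E7386 follicles, against -3.81, -3.25, -2.84 and -3.81 in vehicle follicles. These groups did not overlap either, and the difference was -1.01 ± 0.28 (SE; adjusted p = 0.149), or -0.26 under normexp. Ccl5, a T cell and macrophage product, had log2 values of 0.54, 0.99, -1.28 and -1.17 in E7386 follicles, against 0.32, 0.62, 1.23 and 0.91 in vehicle follicles. On E7386 arrays 3 and 4 it was below every vehicle array, and on arrays 1 and 2 it lay among them. Its difference was -1.0 ± 0.53 (SE; adjusted p = 0.428).

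The rodent chemokines Ccl6 and Ccl9, which act through Ccr1 and are made by macrophages and other myeloid cells, had higher means in E7386 follicles. Ccl6 had log2 values of 0.82, 1.08, 0.72 and 1.23 in E7386 follicles, against -0.0034, 0.65, 0.42 and 0.40 in vehicle follicles. It was the only member whose E7386 arrays all lay above the vehicle arrays, by 0.60 ± 0.16 (SE), or 1.51-fold, with an adjusted p of 0.142. Ccl9 had log2 values of 0.56, 0.24, -0.11 and 0.30 in E7386 follicles, against -0.50, -0.026, -0.25 and -0.35 in vehicle follicles. The lowest E7386 array lay within the vehicle range, and the difference was 0.53 ± 0.16 (SE; adjusted p = 0.171). Ccr1 was well above background on no array.

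Ccl5, Ccl9, Ccl6, Ccl3 and Ccl4 are 5 neighbouring genes on mouse chromosome 11, in that order in the RefSeq annotation of GRCm38.p6. Ccl9 and Ccl6 had higher means in E7386 follicles, and the genes on either side, Ccl5, Ccl3 and Ccl4, lower ones. The RefSeq promoter table holds 3 of the 5, shown here because these neighbours differed in direction. Each line is the 250 bases before the transcription start, 5′ to 3′ on the gene's strand (GRCm38.p6). Capitals mark matches to the kappaB motif on either strand, to the AP-1 motif TGANTCA, which reads the same on both strands, to the TCF/LEF motif ATCAAAG on either strand, or to the TATA motif TATAAA on the gene's strand.
Ccl3, chr11:83649379-83649628, minus strand: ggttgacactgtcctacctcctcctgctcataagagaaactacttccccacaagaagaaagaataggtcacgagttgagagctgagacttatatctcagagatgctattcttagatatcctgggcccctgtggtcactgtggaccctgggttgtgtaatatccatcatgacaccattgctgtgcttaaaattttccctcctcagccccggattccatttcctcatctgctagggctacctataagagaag
Ccl6, chr11:83593088-83593337, minus strand: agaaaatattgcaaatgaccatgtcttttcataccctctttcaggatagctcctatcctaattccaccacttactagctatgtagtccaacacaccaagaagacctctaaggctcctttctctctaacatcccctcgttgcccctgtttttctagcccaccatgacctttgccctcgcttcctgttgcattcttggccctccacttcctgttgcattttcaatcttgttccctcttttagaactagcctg
Ccl9, chr11:83578637-83578886, minus strand: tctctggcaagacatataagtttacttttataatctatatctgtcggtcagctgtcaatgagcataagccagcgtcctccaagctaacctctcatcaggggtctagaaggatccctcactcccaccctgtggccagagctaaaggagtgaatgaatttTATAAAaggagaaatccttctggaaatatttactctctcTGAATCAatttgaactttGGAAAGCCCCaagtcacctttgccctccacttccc
In these windows only Ccl9 held any of these motifs: TATAAA at 92 to 87 bases, an AP-1 match at 53 to 47 bases and a kappaB match on the opposite strand at 35 to 26 bases before the start. A match is a description of the letters and does not show binding.

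**Figure D2:**
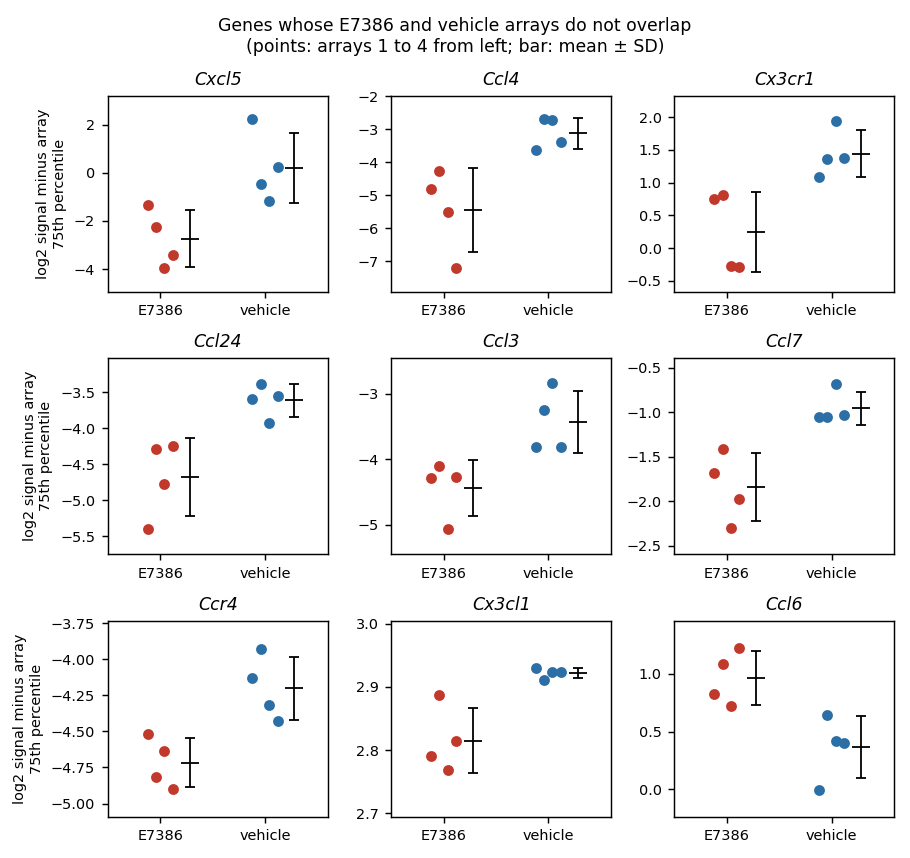
Log2 signal relative to the 75th percentile of each array for the 9 members whose 4 E7386 and 4 vehicle arrays did not overlap; points are arrays and bars are group means ± SD. The 4 E7386 points lie below the 4 vehicle points for 8 members and above them for Ccl6, and for Cx3cl1 the gap is small, with means of 2.81 in E7386 and 2.92 in vehicle follicles.

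The monocyte chemoattractants of the Ccr2 axis all had lower means in E7386 follicles. Ccl7 had log2 values of -1.69, -1.41, -2.30 and -1.97 in E7386 follicles, against -1.06, -1.05, -0.69 and -1.03 in vehicle follicles. Its groups did not overlap, and the spread within each was small: the mean was -1.84 ± 0.38 in E7386 follicles and -0.96 ± 0.18 in vehicle follicles (SD, n = 4 each). The difference was -0.88 (95% interval -1.32 to -0.44), 1.85-fold lower, with the adjusted p of 0.0828 given above. Ccl12, a mouse chemokine close to Ccl2, had log2 values of -1.58, -2.18, -3.45 and -3.88 in E7386 follicles, against -1.52, -1.84, -0.87 and -1.13 in vehicle follicles. Ccl2, the main Ccr2 ligand, had log2 values of 0.18, 0.27, -0.54 and -0.62 in E7386 follicles, against 0.26, 0.39, 0.59 and 0.31 in vehicle follicles. For both genes E7386 arrays 3 and 4 were the lowest of the 8, and arrays 1 and 2 lay nearer to the vehicle arrays. The difference was -1.43 ± 0.50 for Ccl12 and -0.57 ± 0.22 for Ccl2 (SE; adjusted p = 0.239 and 0.280). Ccr2, carried by monocytes recruited from blood, had log2 values of -1.46, -1.80, -2.56 and -2.62 in E7386 follicles, against -2.12, -1.70, -1.11 and -1.77 in vehicle follicles. E7386 arrays 1 and 2 lay within the vehicle range and arrays 3 and 4 below it, with a difference of -0.44 ± 0.31 (SE; adjusted p = 0.561). In the same annotation, Ccl2, Ccl7, Ccl11, Ccl12, Ccl8 and Ccl1 lie next to each other on chromosome 11. All 6 had the lower mean in E7386 follicles, with differences between -0.041 (Ccl8) and -1.43 (Ccl12), where 46.2% of all genes tested did. Ccl8 did not keep its sign in every alternative, and no gene of the 6 passed the adjusted test.

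Cx3cr1 was the receptor with the most negative difference. It marks resident macrophages, Langerhans cells, patrolling monocytes and some T cells, and its ligand Cx3cl1 is held on the membrane of epithelial and endothelial cells until it is shed. Cx3cr1 had log2 values of 0.75, 0.81, -0.28 and -0.28 in E7386 follicles, against 1.09, 1.35, 1.95 and 1.37 in vehicle follicles. The E7386 arrays all lay below the vehicle arrays, and within the E7386 group arrays 3 and 4 were the lower ones. The difference was -1.19 ± 0.31 (SE), 2.28-fold lower, with an adjusted p of 0.129. The other Cx3cr1 probes gave -1.28 and -1.16, so all 3 probes had the lower mean in E7386 follicles. Cx3cl1 had log2 values of 2.79, 2.89, 2.77 and 2.81 in E7386 follicles, against 2.93, 2.91, 2.92 and 2.92 in vehicle follicles. The groups did not overlap, but the difference was only -0.11 ± 0.062 (SE; unadjusted p = 0.124, adjusted p = 0.471). The Cx3cr1 promoter is shown as that of the receptor with the most negative difference (GRCm38.p6, RefSeq, as for the ligands above).
Cx3cr1, chr9:120068297-120068546, minus strand: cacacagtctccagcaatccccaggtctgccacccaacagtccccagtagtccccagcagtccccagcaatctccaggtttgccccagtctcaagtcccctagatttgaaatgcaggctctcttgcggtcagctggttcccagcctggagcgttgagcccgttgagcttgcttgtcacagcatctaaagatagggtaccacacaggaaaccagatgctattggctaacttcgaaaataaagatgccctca
It held none of the motifs searched.

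Of the chemokines that act on eosinophils through Ccr3, Ccl24 had log2 values of -5.40, -4.29, -4.77 and -4.24 in E7386 follicles, against -3.60, -3.38, -3.93 and -3.55 in vehicle follicles. Its groups did not overlap, it was well above background on 3 E7386 arrays and 4 vehicle arrays, and the difference was -1.06 ± 0.26 (SE; adjusted p = 0.110), or -0.20 under normexp. Ccl11 had log2 values of -1.31, -0.83, -0.44 and -0.52 in E7386 follicles, against -0.50, -0.35, -0.54 and -0.52 in vehicle follicles. Ccr3 had log2 values of -4.10, -4.49, -4.71 and -4.79 in E7386 follicles, against -4.20, -4.61, -4.06 and -4.67 in vehicle follicles. Both overlapped between groups, with differences of -0.30 ± 0.18 and -0.14 ± 0.19 (SE). Ccr4, a receptor of skin-homing T cells, had log2 values of -4.52, -4.82, -4.64 and -4.90 in E7386 follicles, against -4.13, -3.93, -4.32 and -4.43 in vehicle follicles. It was lower in all 4 E7386 arrays than in any vehicle array, with a difference of -0.52 ± 0.13 (SE; adjusted p = 0.125), or -0.086 under normexp. Its ligand Ccl17, made by dendritic cells and keratinocytes, had log2 values of -0.100, -0.39, -1.69 and -0.95 in E7386 follicles, against -0.32, -0.043, -1.16 and -1.84 in vehicle follicles, a difference of 0.056 with an interval of -1.02 to 1.13. Ccl22, the other ligand of this receptor, passed the background limit on no array.

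The ligands that epithelia make constantly had differences between -0.31 (Ccl27a) and 0.31 (Cxcl14), none past the test. Ccl27a, the keratinocyte ligand of Ccr10, had log2 values of 2.84, 3.31, 2.44 and 3.34 in E7386 follicles, against 3.31, 3.49, 3.30 and 3.07 in vehicle follicles. The groups overlapped, with a difference of -0.31 ± 0.21 (SE), and the other 2 probes gave -0.23 and 0.16. Ccl28, the mucosal ligand of the same receptor, had log2 values of -5.29, -4.93, -4.32 and -5.80 in E7386 follicles, against -5.41, -4.78, -4.72 and -4.81 in vehicle follicles, and passed the background limit on 2 E7386 and 3 vehicle arrays. Ccr10 had log2 values of -3.16, -2.66, -3.02 and -2.99 in E7386 follicles, against -3.0, -3.54, -3.02 and -2.54 in vehicle follicles, with a difference of 0.070 ± 0.21 (SE). None of these 3 passed the test, and all 3 overlapped between the groups. Cxcl14, a constitutive skin and follicle chemokine, had log2 values of 7.28, 7.68, 7.73 and 7.60 in E7386 follicles, against 6.67, 7.46, 7.42 and 7.52 in vehicle follicles. Its difference was 0.31 ± 0.20 (SE; adjusted p = 0.523), with vehicle array 1 apart from the other 3.

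Cxcl12, the stromal ligand that retains cells bearing Cxcr4, had log2 values of 4.00, 3.96, 4.09 and 4.14 in E7386 follicles, against 3.73, 3.97, 3.82 and 4.20 in vehicle follicles. The groups overlapped, and the interval of the difference was -0.14 to 0.38 around 0.12; the other probe gave -0.14. Cxcr4 had log2 values of -1.81, -1.67, -1.65 and -2.06 in E7386 follicles, against -1.89, -2.11, -1.67 and -2.05 in vehicle follicles, with an interval of -0.17 to 0.43. Ackr3, which scavenges Cxcl12, had log2 values of 0.85, 1.19, 1.30 and 1.19 in E7386 follicles, against 0.79, 1.26, 1.09 and 1.27 in vehicle follicles, with an interval of -0.30 to 0.35. The 3 intervals include 0, and changes within them were not detectable with 4 arrays a group.

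In the lymphocyte axes no member passed the test. Cxcl16, the membrane-bound ligand of Cxcr6, had log2 values of -0.17, 0.021, -0.56 and -0.33 in E7386 follicles, against -0.46, -0.28, -0.00076 and -0.38 in vehicle follicles, with a difference of 0.019. Cxcr6, found on resident and effector T cells, had log2 values of 0.36, 0.28, -0.27 and -0.053 in E7386 follicles, against -0.37, -0.26, 0.11 and -0.93 in vehicle follicles. Its difference was 0.44 ± 0.23 (SE; adjusted p = 0.424), with overlap, and its other probe gave 0.60. Ccr6, the receptor of Langerhans cell precursors and some T cells, had log2 values of -0.80, -0.94, -1.56 and -2.17 in E7386 follicles, against -1.15, -1.33, -1.16 and -1.99 in vehicle follicles, and its ligand Ccl20 passed the background limit on no array. Cxcl13, which attracts B cells through Cxcr5, had log2 values of -1.54, -3.44, -1.82 and -1.37 in E7386 follicles, against -4.73, -3.42, -3.73 and -2.55 in vehicle follicles. It had the most positive difference of the family, 1.57 ± 0.57 (SE), 2.96-fold, with overlapping groups, an unadjusted p of 0.0241 and an adjusted p of 0.253. Cxcr5 was well above background on 1 E7386 and 2 vehicle arrays and was not tested.

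Of the interferon-induced ligands, Cxcl10 had log2 values of -2.37, 0.58, -1.85 and -3.58 in E7386 follicles, against -2.13, -2.57, 0.74 and -3.19 in vehicle follicles. Cxcl9 had log2 values of -4.36, -1.76, -5.02 and -4.70 in E7386 follicles, against -4.80, -5.03, -3.07 and -4.79 in vehicle follicles. In each group 1 array stood far above the others for both genes, E7386 array 2 and vehicle array 3. Their receptor Cxcr3, carried by effector T cells and natural killer cells, had log2 values of -2.80, -2.59, -3.86 and -3.98 in E7386 follicles, against -3.41, -3.32, -2.42 and -3.03 in vehicle follicles. The differences were -0.015 ± 1.06 for Cxcl10, 0.47 ± 0.75 for Cxcl9 and -0.27 ± 0.37 for Cxcr3 (SE). The other Cxcl9 probe, well above background on 1 E7386 and 2 vehicle arrays, gave -0.079. The interval of the Cxcl10 difference was -2.46 to 2.43, so a change within it in either direction was not detectable with these arrays.

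In the Ccr7 axis, which guides dendritic cells and naive T cells to lymph nodes, Ccl19 had log2 values of -0.039, -0.43, 0.072 and -0.096 in E7386 follicles, against -0.19, -0.38, -0.30 and -0.0066 in vehicle follicles. Ccr7 had log2 values of -1.22, -1.27, -3.12 and -2.85 in E7386 follicles, against -2.42, -1.95, -2.02 and -2.87 in vehicle follicles, with E7386 arrays 1 and 2 highest and array 3 lowest of the 8. The differences were 0.096 ± 0.13 and 0.20 ± 0.47 (SE). The other Ccl19 probes gave 0.014 and -0.12. Ccl8, a ligand of Ccr8 in the mouse, had log2 values of 1.44, 1.49, 0.18 and 0.82 in E7386 follicles, against 1.19, 1.23, 1.34 and 0.33 in vehicle follicles. Ccl1, the other Ccr8 ligand, had log2 values of -1.54, -1.90, -3.05 and -2.65 in E7386 follicles, against -2.17, -1.71, -1.50 and -2.29 in vehicle follicles. Ccr8, a receptor of skin-resident T cells, had log2 values of -3.31, -3.50, -3.31 and -3.24 in E7386 follicles, against -3.51, -3.41, -3.89 and -3.44 in vehicle follicles. All 3 overlapped between the groups, with differences of -0.041, -0.36 and 0.22. The other Ccr8 probe, well above background on 3 E7386 and 2 vehicle arrays, gave 1.08. Ccl25, the ligand of Ccr9, had log2 values of -1.04, -1.09, -0.96 and -0.80 in E7386 follicles, against -0.85, -0.75, -1.18 and -1.22 in vehicle follicles. Ccr9, best known from thymus and gut T cells, had log2 values of -3.77, -4.14, -3.91 and -4.54 in E7386 follicles, against -4.08, -4.48, -4.68 and -4.97 in vehicle follicles. Ccr9 had a difference of 0.46 ± 0.22 (SE; limma unadjusted p = 0.0723), and Ccl25 of 0.030. The other Ccl25 probe, well above background on 3 E7386 and 4 vehicle arrays, gave 0.34.

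Ackr4, which degrades Ccl19, Ccl21 and Ccl25 and is made by keratinocytes, had log2 values of -0.77, -0.70, -0.34 and -0.32 in E7386 follicles, against -0.46, -0.053, -0.23 and -0.055 in vehicle follicles. Ackr2, a scavenger of inflammatory CC chemokines, had log2 values of -0.57, -0.30, -0.19 and 0.21 in E7386 follicles, against 0.026, -0.029, 0.37 and 0.47 in vehicle follicles. Ackr1, which carries chemokines across venules and binds them on red cells, had log2 values of -1.45, -1.44, -1.21 and -1.29 in E7386 follicles, against -1.49, -1.26, -1.10 and -0.76 in vehicle follicles. All 3 overlapped between the groups, each with the lower mean in E7386 follicles. The differences were -0.33 ± 0.14, -0.42 ± 0.19 and -0.20 ± 0.15 (SE), and the limma adjusted p-values 0.329, 0.338 and 0.600. The other Ackr2 probe was well above background on no array.

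The remaining untested members were Ccl26, Cxcl17 and Xcr1, well above background on no array, and Xcl1, on 2 vehicle arrays only. A failure to pass this limit bounds the signal of the probe and does not show that the transcript is absent. The rule also matches Ccl21a to Ccl21d, Ccl27b and Cxcl11, whose accessions matched no probe and which were not analysed here.

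E7386 arrays 3 and 4 held the 2 lowest of the 8 values for 12 of the 44 members (27.3%), among them Ccl1, Ccl2, Ccl5, Ccl7, Ccl12, Cxcl5, Ccr2 and Cx3cr1, where they did so for 10.5% of all genes tested. This order was seen in the data, so the shares are a description. Set against each member's vehicle mean, the median deviation over the 44 members was -0.0080, 0.018, -0.31 and -0.22 on E7386 arrays 1 to 4, against -0.12, 0.075, 0.16 and -0.077 on vehicle arrays 1 to 4. The leukocyte marker mean given above ran the same way, and the muscle marker mean the opposite way, since E7386 arrays 3 and 4 had high muscle and low leukocyte signal. Vehicle arrays 2 to 4 also had high muscle signal, without the low leukocyte signal of E7386 arrays 3 and 4. Members that did not follow this order include Ccl3, Ccl6, Ccl24, Cxcl1, Cxcl9, Cxcl10 and Ccr4.

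**Figure D3:**
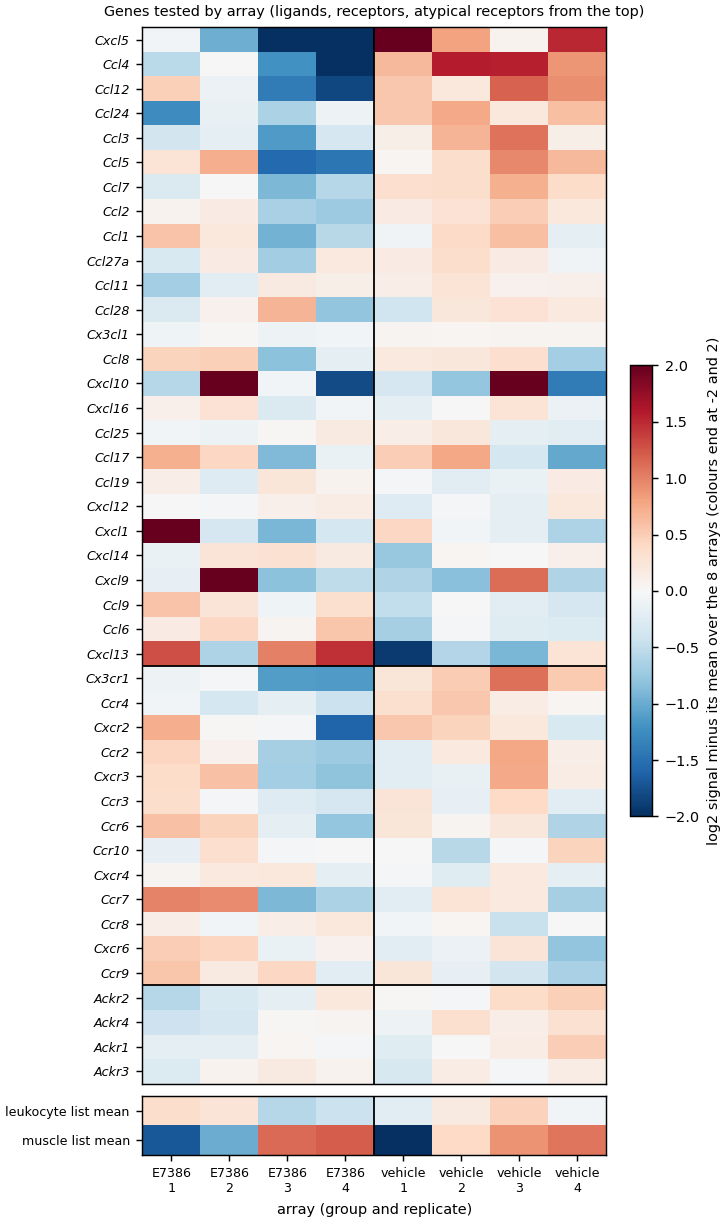
Heat map of 43 of the 44 tested members (rows) on the 8 arrays (columns, E7386 left of vehicle), as log2 signal minus the member's mean over the 8 arrays, with the leukocyte and muscle list means below; colours end at -2 and 2. E7386 arrays 3 and 4 hold the lowest values for Ccl2, Ccl12, Ccl5, Cx3cr1 and Ccr2, and the 2 other E7386 arrays lie nearer to the vehicle arrays.

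**Figure D4:**
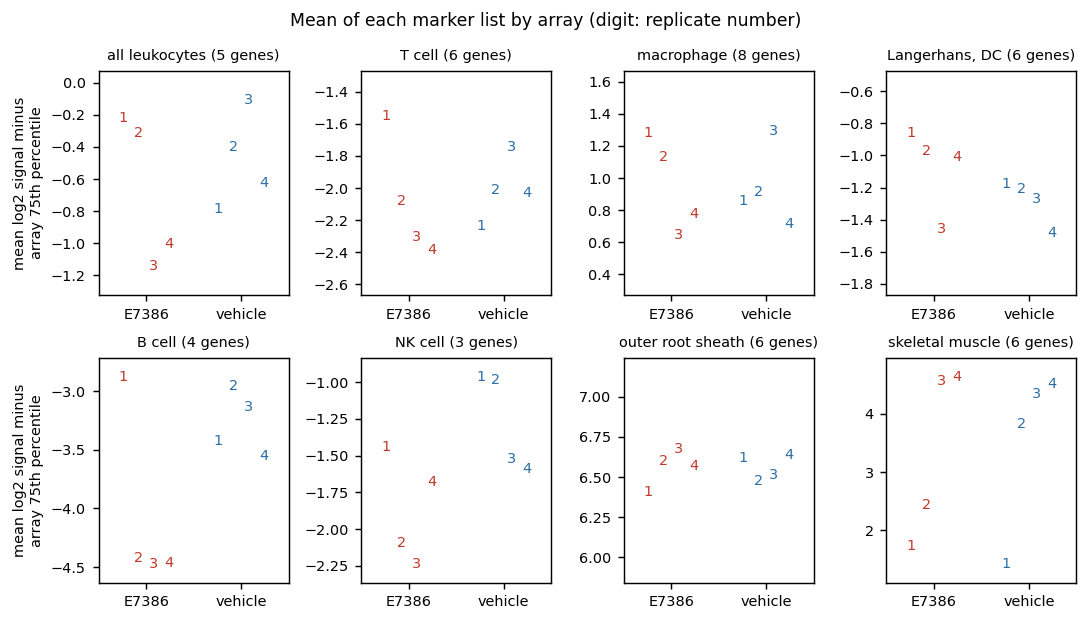
Mean log2 signal of 8 marker lists on each array, E7386 left of vehicle, with the replicate number as the point. The natural killer and B cell panels include Klrb1c and Ms4a1, which were kept through the vehicle arrays alone. That selects for a lower E7386 signal, so these panels are not read as a difference. The muscle mean is low on 3 arrays, E7386 1 and 2 and vehicle 1, and the leukocyte mean is lowest on E7386 arrays 3 and 4, at -1.14 and -1.0.

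Marker lists of leukocyte types had no gene past the adjusted test. Of the general leukocyte markers, 4 of 5 had the lower mean in E7386 follicles (median difference -0.28), of the T cell markers 4 of 6 (median -0.039) and of the macrophage and monocyte markers 3 of 8 tested (median 0.060). The 3 neutrophil markers tested differed in direction, by 0.27 for Csf3r, -0.028 for Elane and -0.13 for Camp, none past the test. Csf3r was much the brightest, with a mean of 5.56 in E7386 and 5.28 in vehicle follicles. Mpo and Ngp, made by neutrophil precursors, were each well above background on 1 vehicle array alone. Neutrophil content is not read from this list. Of 6 Langerhans and dendritic cell markers, 5 had the higher mean. Cd207, the Langerhans cell lectin, had log2 values of -1.73, -1.35, -1.67 and -1.24 in E7386 follicles, against -1.93, -2.10, -2.15 and -2.24 in vehicle follicles, a difference of 0.61 ± 0.13 (SE; adjusted p = 0.0811) with no overlap. Itgax of the same list had the lower mean (difference -0.27), as did Cx3cr1, which Langerhans cells, macrophages and monocytes carry. How Cx3cr1 relates to these markers was not tested. Among natural killer markers, Klrb1c was well above background on 0 E7386 arrays and 3 vehicle arrays, and Ncr1 was not tested. Ms4a1, a B cell marker, was well above background on 1 E7386 and 4 vehicle arrays. Klrb1c and Ms4a1 were kept through the vehicle arrays alone, which selects for a lower E7386 signal, so no difference is given for them. The part of these cell types in the chemokine differences was not tested beyond the alternatives that follow.

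When the mean of the leukocyte list entered the fit as a covariate, Cx3cr1 passed the adjusted test, with a difference of -0.95 and an adjusted p of 0.0141, and so did Ccl7 (-0.76, adjusted p = 0.0459). With the muscle mean as the covariate, Cxcl5 passed (-3.10, adjusted p = 0.0131). Without the 3 arrays of low muscle signal, which left E7386 arrays 3 and 4 against vehicle arrays 2 to 4, Ccl5 passed (-2.14, adjusted p = 0.0439). The 3 settings were chosen after seeing the data, and each calls other members, so no member passed in more than 1 of them. A covariate that may itself respond to treatment removes part of any difference that runs with it.

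**Figure D5:**
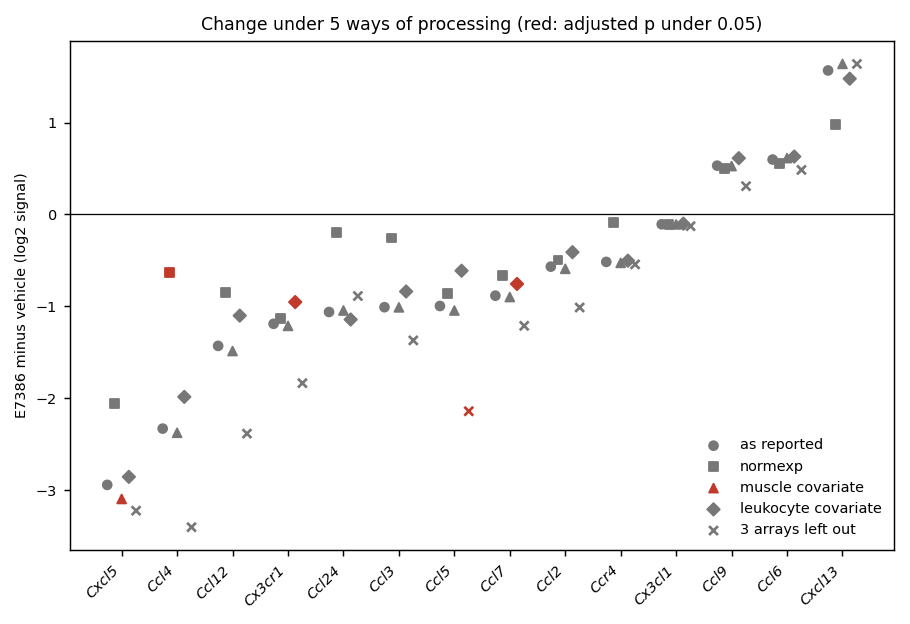
Difference in log2 signal (E7386 minus vehicle) of 14 members named in the text, under the values as reported and 4 alternatives, with adjusted p under 0.05 in red. For Ccl4, Ccl3, Ccl24 and Ccr4 normexp background correction lies closest to 0, at -0.63 for Ccl4, and the 14 members keep their sign in the 5 settings shown. The offset added in normexp brings differences between weak signals closer to 0 whatever their cause. Ccl4 was kept through the vehicle arrays alone, so its colour is not read as a call.

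Of the wider pathway, the chemokine-related genes outside the symbol rule included Pf4, the platelet chemokine Cxcl4, with log2 values of 2.12, 2.04, 1.84 and 2.10 in E7386 follicles, against 2.16, 2.36, 2.55 and 3.00 in vehicle follicles and a difference of -0.49 ± 0.18 (SE; adjusted p = 0.246). None of the 9 tested passed the adjusted test. Of 13 tested genes of the NF-kappaB pathway, which drives many inducible chemokines, none passed. Nfkbiz, an inducible nuclear regulator of that pathway, came nearest, with a difference of 0.60 ± 0.13 (SE; adjusted p = 0.0867). Of 10 tested inflammatory cytokines none passed, and Csf1, the macrophage growth factor, had a difference of -0.53 ± 0.10 (SE; adjusted p = 0.0625). Under normexp the adjusted p was 0.0382 for Cd207, 0.0488 for Nfkbiz and 0.0430 for Csf1, and Csf1 also passed with scaling to the array median and with limma's trend and robust options. Glucocorticoid-induced genes, whose products include repressors of inflammatory transcription, had higher means in E7386 follicles for all 13 of the list, where 13649 of the 25353 genes tested did, and 4 passed the test, where 0.781% of all genes did in this direction: on the log2 scale Fkbp5 rose by 1.90, Tsc22d3 by 0.83, Zbtb16 by 1.77 and Klf9 by 0.93 (adjusted p = 0.0399, 0.0167, 0.00999 and 0.0462). With 1 array left out the adjusted p ran 0.0402 to 0.128 for Fkbp5, 0.00986 to 0.0706 for Tsc22d3, 0.0130 to 0.0454 for Zbtb16 and 0.0484 to 0.144 for Klf9. The list was chosen with earlier results of these data known, so its counts are a description and not a test. Nfkbia is in this list and in the NF-kappaB list. Whether the glucocorticoid-induced list bears on the chemokines was not tested.

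Promoter sequences were in the RefSeq table for 42 of the 56 members, as 46 promoters. A kappaB match on either strand lay within 250 bases before the start in 23.9% of them, against 7.25% of 32851 promoters of all genes, and TATAAA in 26.1% against 7.59%. TGANTCA was found in 10.9% against 6.75%. The TCF/LEF motif ATCAAAG, the one bound by the partners of beta-catenin and searched on both strands, was found in 2.17%, the promoter of Cxcl12 alone, against 3.21%. Genes with a kappaB match were Ackr2, Ccl1, Ccl20, Ccl9, Ccr1, Ccr3, Ccr6, Cxcl1, Cxcl10, Cxcl2 and Cxcl3, which are 11 of the 42. Cxcl1 is shown as a chemokine with a kappaB match and overlapping arrays, with the match in capitals (GRCm38.p6, RefSeq, 250 bases before the start).
Cxcl1, chr5:90890995-90891244, plus strand: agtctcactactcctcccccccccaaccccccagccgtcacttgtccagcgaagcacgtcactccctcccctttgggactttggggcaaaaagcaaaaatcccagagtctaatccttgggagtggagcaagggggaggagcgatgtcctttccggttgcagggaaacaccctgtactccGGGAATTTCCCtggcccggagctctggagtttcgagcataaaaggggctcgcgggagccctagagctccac
Its match reads on both strands, 71 to 61 bases before the start.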

How the data were processed

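Whisker follicle RNA of 4 E7386 and 4 vehicle samples was measured on 1-colour Agilent arrays. The scanner files deposited by the authors give each spot's intensity; per the file headers they come from Feature Extraction 11.5.1.1 (version 11 in the submitters' processing notes), and the processed signal is background-corrected. The authors' value table, on the log2 scale, has a median of 5.31 in every column and the rank order of the processed signal; it served as an alternative.

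Spots marked as non-uniform or population outliers were set to missing, and spots of 1 probe averaged. Of 55681 probes, 29150 carry a RefSeq accession and 27509 were named through RefSeq's GRCm38.p6 table. The brightest probe over the 8 arrays stands for a gene, kept if well above background on at least 3 of 4 arrays of either group. limma 3.58.1 (lmFit, eBayes; R 4.3.3) was fitted to all 25353 genes at once, with Benjamini-Hochberg adjustment at 0.05, after its code was tested on simulated data. All arrays share 1 slide and 1 scan, which left no such block to fit.

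Alternatives were the background correction, scaling, filter, probe choice, variance model, array weights, marked spots, replicate block and each array left out. Normexp (offset 50) on median signals, both covariates and the 3 arrays left out were added after seeing the data. Members and lists were chosen with earlier results of these data known. The rule for per-array values covers members without overlap, the brightest members and tested ligand and receptor pairs; the other tested members are given likewise, except 1 that is counted but not reported here. Outside the family it covers called genes and up to 3 per leukocyte list. Besides the glucocorticoid-induced genes, Dgat2l6 of a sebaceous gland list was called, higher by 0.78 in E7386 follicles (limma adjusted p = 0.0289). Pf4, Nfkbiz, Csf1, Pik3r5, Vcam1, Il34, Mpo and Ngp were named after their values were seen.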

Additional observations from a re-analysis of the deposited data

Results flagged for a closer look

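In 5 of 88 groups of 4 arrays (44 members in each treatment group), 1 array stood apart from the other 3 by Dixon's test, where chance gives about 1 in 20. All 5 were vehicle groups. Ccl28 was -5.41 on vehicle array 1, against -4.81 to -4.72 on the other vehicle arrays. Cxcl14 was 6.67 on the same array, against 7.42 to 7.52. Ccl7 was -0.69 on vehicle array 3, against -1.06 to -1.03, and Cxcl9 was -3.07 on that array, against -5.03 to -4.79. Ccl8 was 0.33 on vehicle array 4, against 1.19 to 1.34. Without vehicle array 3 the difference of Ccl7 was -0.79 (limma adjusted p = 0.177).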

How the results depend on the processing

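No member was called higher in any of the 23 alternatives. Members called lower numbered 0 as reported, 1 with normexp on median signals, 1 with the muscle covariate, 2 with the leukocyte covariate, 1 without the 3 arrays of low muscle signal, and 0 otherwise, including each array left out. The 1 with normexp was Ccl4, which was kept through the vehicle arrays alone, so it is not read as a call. The number of genes called over all genes was 287 as reported, 155 with no detection filter, 561 with the muscle covariate, 172 with the leukocyte covariate, 63 without the 3 arrays, and 86 to 256 with 1 array left out, lowest without E7386 array 3. It was 155, 86 and 104 without E7386 arrays 2, 3 and 4, and 156, 126 and 123 without vehicle arrays 1, 2 and 3. The share of calls that were higher was 69.0% as reported, 55.7% with the array median and 89.6% with the replicate block. The members' median difference was 0.025 with normexp, -0.33 without the 3 arrays and -0.26 to -0.010 with 1 array left out. Samples with the same replicate number had correlations of deviations of 0.487, -0.165, 0.287 and 0.18, so the numbers were not taken as pairs. Not every E7386 sample correlated best with its own number. The replicate block called 48 genes and no member. Of the 44 members, 28 kept their sign in every setting run and 16 did not, and the cause was not tested. Under the array median these were Ackr3 -0.045, Ccl17 -0.015, Ccl25 -0.042, Ccr10 -0.0010, Ccr6 -0.028 and Cxcl16 -0.052. Under array weights these were Ccl17 -0.090, Cxcl10 0.096 and Cxcl16 -0.010. Under the muscle covariate these were Ccl17 -0.014 and Ccr6 -0.0061. Under the 3 arrays left out these were Ccl17 -0.31, Ccr6 -0.37, Ccr7 -0.70, Cxcl1 -0.35, Cxcl16 -0.23 and Cxcl9 -0.56. Under the mean of all probes these were Ccl19 -0.0028 and Cxcl12 -0.0091. Under the leukocyte covariate these were Ccl25 -0.010, Ccl8 0.17 and Cxcl10 0.48. Under normexp these were Ccl28 0.089, Ccr3 0.073, Cxcl10 0.041 and Cxcr2 0.027. Under quantile normalization it was Ccr10 -0.0066. Under the authors' deposited values it was Ccr10 -0.0070. With 1 array left out the sign turned within these ranges: Ackr3 -0.077 to 0.12, Ccl17 -0.28 to 0.36, Ccl25 -0.043 to 0.11, Ccl28 -0.41 to 0.082, Ccl8 -0.27 to 0.23, Ccr10 -0.10 to 0.23, Ccr6 -0.15 to 0.31, Ccr7 -0.098 to 0.53, Cxcl1 -0.42 to 0.56, Cxcl10 -0.81 to 0.83, Cxcl16 -0.074 to 0.12, Cxcl9 -0.27 to 0.92 and Cxcr2 -0.77 to 0.012. Normexp on mean signals was not run, as the scanner files used here give median signals. Precision is limited by 4 arrays a group, and for Ccl4, Ccl28, Ccl24 and Cxcr2 by signal near background.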

Other observations

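Genes that carry the chemokine signal inside the cell (G protein subunits, arrestins, receptor kinases, regulators of G protein signalling, Dock2, phosphoinositide 3-kinase gamma and the Rac exchange factor Prex1) had lower means in E7386 follicles for 17 of 22 tested (77.3%, against 46.2% of all genes), with a median difference of -0.088, against 0.017 over all genes. The list was chosen with earlier results of these data known, so these shares are a description. None passed the adjusted limma test, and 5 were lower and 1 higher at an unadjusted p under 0.05 (22.7% and 4.55%, against 7.13% and 7.87% of all genes). Pik3r5, the regulatory subunit of phosphoinositide 3-kinase gamma, was the higher one, with log2 values of -2.62, -2.84, -3.06 and -2.44 in E7386 follicles, against -3.44, -3.53, -3.08 and -3.23 in vehicle follicles and a difference of 0.58 ± 0.16 (SE; adjusted p = 0.136). Of 11 tested leukocyte adhesion genes, 6 had the lower mean, with a median difference of -0.15, and none passed. Vcam1, an endothelial and stromal adhesion molecule, had log2 values of 2.4, 1.86, 1.23 and 1.5 in E7386 follicles, against 1.27, 1.01, 1.20 and 1.07 in vehicle follicles (difference 0.61 ± 0.23, SE; adjusted p = 0.271). Il34, a keratinocyte ligand of the Csf1 receptor that maintains Langerhans cells, had log2 values of 1.18, 1.28, 1.26 and 1.29 in E7386 follicles, against 1.55, 1.36, 1.53 and 1.49 in vehicle follicles (difference -0.23 ± 0.072, SE; adjusted p = 0.20).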
